A study of Mus musculus with 4 samples.

Results

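The genes that carry glucose carbon through glycolysis, the pyruvate branch point and the tricarboxylic acid (TCA) cycle were described in 4 RNA libraries labelled as medial basal radial glia. The set was chosen by gene name and holds 39 of the 45706 genes in the deposited count table. All 39 were found there by their Ensembl identifiers in GENCODE release M21 (GRCm38). By role they are 3 glucose and lactate transporters, 9 genes of upper glycolysis, 6 of lower glycolysis, 2 lactate dehydrogenase genes, 7 genes of pyruvate entry and oxidation, and 12 of the TCA cycle.

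Basal radial glia are neural progenitors of the developing neocortex that keep a basal process but have no contact with the ventricle. All 4 libraries came from mouse embryos of strain C57BL/6JOlaHsd and genotype Tubb-GFP/+ at E18.5, and their titles name DiI, a lipophilic membrane dye. They form 1 group, so the design holds no contrast, and levels are compared between genes within each library. The labels do not say how reporter and dye served in the isolation, or if each library had its own animals. The p-values therefore cover no more than the spread among these 4 samples, part or all of which may be technical.

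Glycolysis turns glucose into pyruvate in the cytosol, and lactate dehydrogenase interconverts pyruvate and lactate. The mitochondrial pyruvate carrier brings pyruvate into the mitochondrion, where the pyruvate dehydrogenase complex makes acetyl-CoA for the TCA cycle and pyruvate carboxylase makes oxaloacetate. Many of these steps have several isozymes encoded by separate genes, which differ in kinetics, regulation and tissue distribution. Neural progenitors are commonly described as strongly glycolytic and neurons as relying on mitochondrial oxidation.

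Library totals lay between 26540656 and 34837657 counts, and the 39 genes took between 1.003% and 1.08% of them. Replicate 4 stood apart by the mean chi-square per gene between libraries, which was 9.83 to 13.9 among replicates 1 to 3 and 20.1 to 26.4 for pairs with replicate 4. The Pearson correlation of log2 counts did not separate it. This was 0.9712 to 0.974 among replicates 1 to 3 and 0.9686 to 0.9722 for pairs with replicate 4. No pair agreed within sampling noise. All 8 radial glia markers tested were above 1 TPM (transcript abundance scaled to exon length and to a fixed total per library), with summed levels of 4737 to 5727 TPM, led by the brain lipid-binding protein gene Fabp7 (4631 ± 382 TPM; SD, n = 4). All 8 neuron markers were above 1 TPM as well, with sums of 9601 to 10710 TPM, led by the neuronal tubulin gene Tubb3 (6691 ± 496 TPM). All 5 intermediate progenitor markers (led by Gadd45g), all 6 astrocyte markers (led by Sparcl1) and all 5 markers of the oligodendrocyte lineage (led by Olig1) were above 1 TPM, with sums of 948 to 1049, 288 to 339 and 43.6 to 51.7 TPM. Erythroid markers summed to 2377 to 4203 TPM, led by Hbb-bs, with all 7 measured markers highest in replicate 2. Endothelial markers summed to 1.57 to 2.61 TPM, with 4 of 6 called below 1 TPM and Cldn5 and Pecam1 not called. Above 1 TPM were 3 of 5 mural cell markers (led by Pdgfrb, 6.38 TPM), 5 of 8 microglia markers (C1qb, 13.3 TPM), 1 of 5 meningeal markers (Lum, 1.98 TPM), 1 of 4 choroid plexus markers (Ttr, 67.8 TPM) and 1 of 4 ependymal markers (Mcidas, 1.81 TPM). No marker was at 0 in all 4 libraries. Of the protein-coding genes tested, 75.8% were above 1 TPM and 10.5% below it, so passing 1 TPM does not by itself mark a cell type. The libraries were bulk RNA, in which fewer cells of a type and less RNA per cell cannot be told apart. Since markers of neurons and erythroid cells were abundant beside those of radial glia, the levels below are those of each library as a whole. They cannot be assigned to radial glia or to another cell type.

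The glycolysis and TCA cycle genes were all detected, and most were abundant. By a quasi-likelihood test from edgeR fits of all 20991 genes with at least 10 counts, all 39 were above 1 TPM. This level was passed by 66.2% of all genes tested and 75.8% of protein-coding genes. None was below 1 TPM, against 10.9% of all genes tested and 10.5% of protein-coding genes. Above 10 TPM lay 35 of the 39, against 35.3% of all genes tested and 45.3% of protein-coding genes. Above 100 TPM lay 20 of the 39, against 7.29% of all genes tested and 9.59% of protein-coding genes, and the other 19 were below it, as were 91.4% of all genes tested and 88.7% of protein-coding genes. Hk2, Pfkp and Suclg2 were below 10 TPM, as were 58.4% of all genes tested and 48.9% of protein-coding genes, and Slc16a1 was not called on either side. The median of the mean levels was 124 TPM, against 8.997 TPM for the 15401 protein-coding genes tested. Together the 39 genes reached 9055, 9240, 9121 and 8880 TPM in replicates 1 to 4, a narrow range around 9074 ± 150.5 TPM (SD, n = 4).

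**Figure D1:**
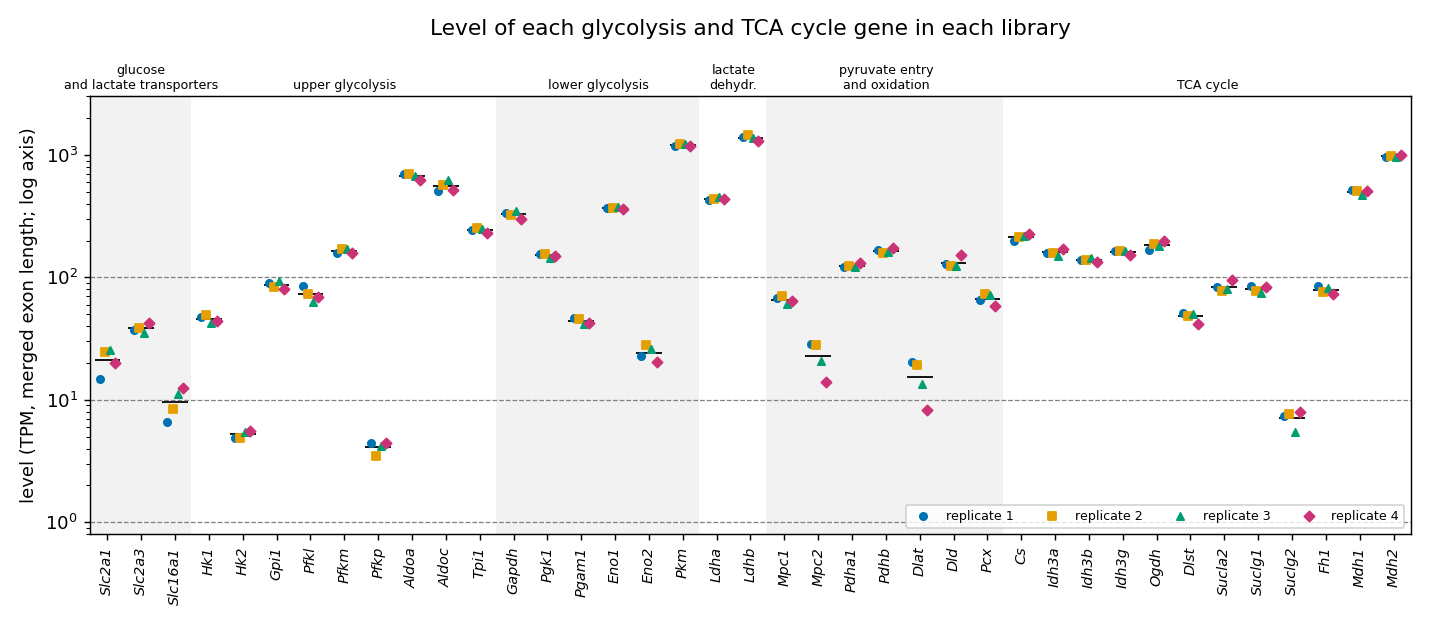
Level of each gene on a log axis, in TPM computed with the merged exon length, with 1 symbol per library, a bar at the mean of 4 libraries and dashed lines at 1, 10 and 100 TPM. Ldhb, Pkm and Mdh2 lie highest, near or above 1000 TPM, while Hk2, Pfkp and Suclg2 lie under 10 TPM, and the 4 libraries of Dlat and Mpc2 spread more than those of their neighbours.

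The order of levels was led by Ldhb at 1374 ± 67.3 TPM, Pkm at 1202 ± 22.1 TPM, Mdh2 at 977 ± 20.7 TPM, Aldoa at 675 ± 33.9 TPM and Aldoc at 552 ± 56.1 TPM (SD, n = 4). These neighbours did not overlap across libraries. Of the 38 neighbouring pairs in the whole order, 14 had ranges apart and 24 overlapped. The longest run of overlapping neighbours went from Ogdh (183 TPM) through Pdhb, Pfkm, Idh3g, Idh3a, Pgk1, Idh3b and Dld to Pdha1 (124 TPM). Ldhb ranked 66 and Pkm 84 among protein-coding genes.

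Among the transporters, Slc2a3, the neuronal glucose transporter GLUT3, was above Slc2a1, the glucose transporter GLUT1 of barrier and glial cells. Slc2a3 was at 37.1, 38.9, 35.3 and 42.0 TPM in replicates 1 to 4, and Slc2a1 at 14.7, 24.7, 25.7 and 20.2 TPM. Slc2a3 was the higher in each library, by 1.37 to 2.52 times, and took 64.6 ± 6.17% of their summed TPM. Divided by the length of the principal transcript (the main protein-coding transcript in the annotation) in place of the merged exons, the ratio was 3.21 ± 0.88 in place of 1.89 ± 0.52. Slc16a1, which encodes the lactate and pyruvate transporter MCT1, was at 6.62, 8.45, 11.1 and 12.5 TPM. Its libraries straddled 10 TPM, and it was not called above or below that level (log2 difference −0.05 ± 0.14, test-based SE; edgeR adjusted p = 0.744). All 3 transporters were below 100 TPM. Slc2a1 and Slc16a1 were lowest in replicate 1, and their coefficients of variation (CV) of 23.5% and 27.4% were higher than those of 96.7% and 98.2% of the 7390 protein-coding genes with a mean of at least 10 TPM. These 7390 genes, with a median of 35.98 TPM, were not matched for level. The means of Slc2a1 (21.3 TPM) and Slc16a1 (9.68 TPM) lie below that median.

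Of 7 other glucose transporter genes fixed as a list, 5 were above 1 TPM and all 7 below 10 TPM. Among protein-coding genes tested, 75.8% were above 1 TPM and 48.9% below 10 TPM. The highest were Slc2a6 at 7.40 ± 2.17 TPM and Slc2a4, the insulin-responsive GLUT4, at 5.92 ± 1.51 TPM. Slc2a12 (0.707 TPM) was not called, and Slc2a2, the GLUT2 of liver and pancreatic islets, was below 1 TPM (0.156 TPM). Of 5 partners and relatives of MCT1, 3 were above 1 TPM: Bsg (basigin, the chaperone of MCT1), Emb (embigin, 4.06 TPM) and Slc16a7 (MCT2, 2.10 TPM). Slc16a3, the lactate exporter MCT4, was at 1.04 ± 0.32 TPM and was not called (edgeR adjusted p = 0.826). Slc16a8, with at most 4 counts in a library, had too few counts for the test.

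Hexokinase traps glucose as glucose-6-phosphate, and Hk1, the form typical of brain, was its main transcript. Hk1 was at 47.2, 49.7, 42.4 and 44.1 TPM and Hk2, the inducible form, at 4.91, 4.93, 5.46 and 5.61 TPM in replicates 1 to 4. The libraries of the 2 genes did not overlap, at a ratio of 8.83 ± 1.20 (SD, n = 4) by merged exons and 18.07 ± 2.45 by the principal transcript. Hk1 held 80.7 ± 1.60% of the summed hexokinase TPM and Hk2 9.25 ± 1.14%. Hk3 held 0.290%, at 0.159 TPM. Hkdc1 had 0 counts in each library, which allows up to 0.0710 TPM (3 counts in the shallowest library, counting error only).

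Phosphofructokinase, the committed step of glycolysis, was mostly the muscle-type subunit Pfkm. Pfkm was at 157, 170.1, 171 and 157 TPM, and the liver-type Pfkl at 84.4, 73.7, 62.4 and 69.5 TPM. No Pfkl library reached a Pfkm library, and the difference was −1.17 ± 0.23 on the log2(TPM + 1) scale (Pfkl minus Pfkm, SD, n = 4). The platelet-type Pfkp, which is known for its expression in brain and tumours, was at 4.45, 3.49, 4.202 and 4.47 TPM and held 1.73 ± 0.23% of the summed TPM, against 68.1 ± 3.34% for Pfkm. By merged exons Pfkp was the lowest of the 39 genes, with a log2 distance to 10 TPM of −1.27 ± 0.10 (test-based SE; adjusted p = 5.02e-07, edgeR). Its merged exons span 13401 bases and its principal transcript 4145, and with the latter length its level was 8.90 TPM. By that length Pfkp ranked 36 of 39, above Suclg2 (6.49 TPM), Slc16a1 (6.42 TPM) and Hk2 (3.75 TPM). The ratio of Pfkm to Pfkl was 2.29 ± 0.36 by merged exons and 1.49 ± 0.23 by the principal transcript (SD, n = 4). In raw counts Pfkm was higher in 3 libraries (6397 against 5541, 5480 against 3999 and 4317 against 3822 in replicates 2 to 4) and Pfkl in replicate 1 (5041 against 4687). Gpi1, the isomerase between hexokinase and phosphofructokinase, was at 89.4, 83.7, 92.7 and 80.7 TPM. A same-strand gene, Gm26513, shares 10.2% of the exonic bases of Pfkm. On the opposite strand Gm26762 shares 11.5% of those of Gpi1 and Pitrm1 5.58% of those of Pfkp.

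Fructose-2,6-bisphosphate, the allosteric activator of phosphofructokinase, is set by the Pfkfb enzymes and Tigar. Of 7 genes in a list of these enzymes and the gluconeogenic fructose-1,6-bisphosphatases, 4 were above 1 TPM, against 75.8% of protein-coding genes tested. Pfkfb3, whose enzyme strongly favours synthesis of the activator, led at 56.6 ± 3.99 TPM, and Tigar, a bisphosphatase, followed at 49.3 ± 4.86 TPM. Pfkfb1 (1.16 TPM), Fbp1 (0.604 TPM) and Fbp2 (0.725 TPM) were not called.

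Aldolase splits fructose-1,6-bisphosphate, and its transcripts came mostly from 2 genes, Aldoa and Aldoc. Aldoa, the ubiquitous form, was at 698, 701, 674 and 627.5 TPM, and Aldoc, the brain form and an astrocyte gene, at 503, 569, 624 and 513 TPM in replicates 1 to 4. Aldoa was higher in each library, by 1.08 to 1.39 times, or 0.29 ± 0.15 on the log2(TPM + 1) scale (SD, n = 4). By the principal transcript it was 2.02 ± 0.21 times Aldoc, in place of 1.23 ± 0.13 times. The smallest gap was in replicate 3, where raw counts ran the other way (18840 for Aldoa, 19570 for Aldoc). Tpi1, triose-phosphate isomerase, was at 246, 252, 248 and 229.9 TPM, with replicate 4 the lowest.

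In lower glycolysis, Gapdh, the dehydrogenase often used as a reference transcript, was at 334, 323, 347 and 302 TPM in replicates 1 to 4. Its value is uncertain because the mouse genome holds many processed pseudogenes of Gapdh. Gapdh lies on chromosome 6 (GRCm38), 125161715 to 125166467, minus strand. Within a 1420-base coding transcript, 88.0% of the bases had an annotated copy of at least 99% identity elsewhere. Of 177 annotated matches of at least 90% identity over 200 bases, 156 could be summed, and 152 of these had a count. They held 1494, 1864, 1759 and 1366 counts, or 11.2 ± 0.41% of the counts of Gapdh plus copies (SD, n = 4). With matches of at least 95% identity this was 5.87%. How reads that align equally well to a gene and its copy were counted is not stated in the labels or notes.

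Stretches of Gapdh and Pkm are printed beside those of a copy to show how few bases separate them. Capitals mark the bases that differ, and positions count from 1 at the 5′ end of each 80-base stretch. From Gapdh to its copy Gm3200, which held 129, 118, 169 and 162 counts, the substitutions are T11C, C26T, C62T and C80A. From Pkm to its copy Gm6560, which held 184, 272, 219 and 202 counts, they are G37A, C39T, T74C and T80G. The Gapdh stretch holds coding bases 140 to 219 (chr6:125163241-125163320, minus strand) and the Gm3200 stretch lies at chr7:100761588-100761667, minus strand. The Pkm stretch holds coding bases 346 to 425 across an exon junction (between chr9:59668648 and chr9:59668959, plus strand), and the Gm6560 stretch lies at chr5:22725744-22725823, minus strand. Sequences are from the GENCODE M21 transcripts.
Gapdh: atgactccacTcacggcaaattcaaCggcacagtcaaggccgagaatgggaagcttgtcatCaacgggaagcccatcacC
Gm3200: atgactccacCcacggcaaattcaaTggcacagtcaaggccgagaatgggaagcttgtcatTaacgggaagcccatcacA
Pkm: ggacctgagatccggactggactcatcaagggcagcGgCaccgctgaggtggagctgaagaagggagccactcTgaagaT
Gm6560: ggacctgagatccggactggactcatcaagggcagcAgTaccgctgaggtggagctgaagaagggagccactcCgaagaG

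Pgk1, phosphoglycerate kinase and the first ATP-yielding step, was at 155, 155, 144 and 149.9 TPM. Its testis-specific counterpart Pgk2 had 0 counts in each library, which allows up to 0.224 TPM. Pgam1, phosphoglycerate mutase, was at 46.7, 45.8, 41.9 and 42.7 TPM, the lowest level in lower glycolysis apart from the neuronal enolase Eno2. The muscle form Pgam2 was at 3.66 ± 1.05 TPM and held between 4.87% and 10.1% of the step's TPM. Both Pgk1 and Pgam1 have annotated copies of 100% identity. For Pgam1 the copy Pgam1-ps2 matches 765 bases, its whole length, so that a read from this stretch has no unique origin, and Pgam1-ps2 held 2 to 5 counts per library. The stretch printed here holds the first 80 coding bases of Pgam1 (chr19:41912048-41912127, plus strand) and is the same, with 0 differences, in the copy (chr7:27470456-27470535, minus strand).
Pgam1 and Pgam1-ps2: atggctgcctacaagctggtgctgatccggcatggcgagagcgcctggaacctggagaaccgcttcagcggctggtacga

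If reads in such stretches had been left out, dividing by the whole exon length would give too low a level. With the bases of at least 99% copies taken off the length, the level of Pgk1 was 343 TPM in place of 151 TPM, and that of Pgam1 72.1 in place of 44.3 TPM. For Eno1 it was 545 in place of 369 TPM and for Gapdh 468 in place of 327 TPM. Which length fits these counts was not tested.

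Enolase was almost wholly Eno1, the ubiquitous alpha form, at 369, 369, 376 and 362 TPM. Its CV of 1.56% was the lowest of the 39 genes. Among protein-coding genes with a mean of at least 10 TPM, not matched for level, 0.920% had a lower one. Eno2, neuron-specific enolase, was at 22.6, 28.2, 26.1 and 20.3 TPM and held 6.12 ± 0.78% of the enolase TPM, while the muscle form Eno3 held 0.777%. The ratio of Eno1 to Eno2 was 15.4 ± 2.09 by merged exons and 24.3 ± 3.296 by the principal transcript (SD, n = 4), and their libraries did not overlap. Pkm, pyruvate kinase, was at 1188, 1221, 1219 and 1178 TPM and held 99.99% of the step, since the liver and red cell form Pklr was below 1 TPM (0.138 TPM). The counts per gene do not separate the M1 and M2 splice forms of Pkm. A same-strand gene, Gm49759, shares 15.3% of the exonic bases of Pkm.

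Most lactate dehydrogenase transcripts came from Ldhb. Ldhb encodes the H subunit, typical of oxidative tissues, and Ldha the M subunit, typical of glycolytic ones. Ldhb lies on chromosome 6 (GRCm38), 142490249 to 142507957, minus strand. It was at 1392, 1452, 1364 and 1290 TPM, and Ldha at 431, 435, 453 and 433 TPM in replicates 1 to 4. Every Ldhb library was above every Ldha library. Ldhb was 3.14 ± 0.17 times Ldha by merged exons, and 2.02 ± 0.11 times by the principal transcript (SD, n = 4). By merged exons it held 75.8 ± 1.002% of the summed TPM, with a range of 74.9% to 76.9%. The difference stood in raw counts too, at 19550 against 12763 in replicate 1. The log2 distance of Ldhb to 100 TPM was 3.78 ± 0.02 (test-based SE; adjusted p = 1.502e-16, edgeR). Of 13 annotated matches of Ldha, 10 were summed, and these held 0.0691% of the counts of Ldha plus copies. Gm5452 (95.9% identity over 997 bases) and Gm9247 (95.6% over 1000 bases) are absent from the deposited count table. Reads in these copies of Ldha were therefore not measured. The single copy of Ldhb held 0.169%. Ldhc, the testis form, was not called (0.613 TPM).

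**Figure D2:**
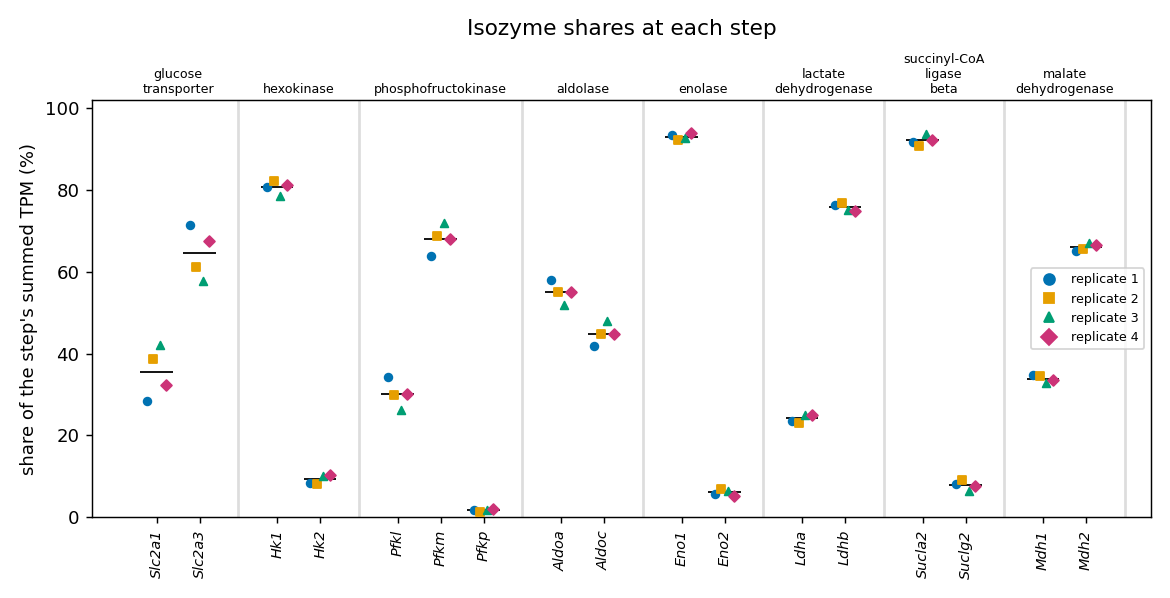
Share of each isozyme of the gene set in the summed TPM of its step, in percent, for steps with more than 1 such isozyme, with 1 symbol per library and a bar at the mean of 4 libraries. Hk1, Pfkm, Eno1, Ldhb, Sucla2 and Mdh2 lead their steps in each library, and Aldoa leads Aldoc by a margin of 3.81 percentage points in replicate 3.

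Summed over isozymes, the steps covered a wide range. The lowest sums were phosphoglycerate mutase at 48.0 ± 1.45 TPM, hexokinase at 56.8 ± 3.20 TPM and the pair of glucose transporters at 59.7 ± 5.33 TPM (SD, n = 4). In the middle were phosphoglycerate kinase at 151 ± 5.10 TPM, phosphofructokinase at 240.3 ± 7.67 TPM and enolase at 396 ± 8.88 TPM. The highest were pyruvate kinase at 1202 ± 22.1 TPM, aldolase at 1228 ± 70.6 TPM, malate dehydrogenase at 1478 ± 34.6 TPM and lactate dehydrogenase at 1813 ± 67.5 TPM. The order of the highest steps turned with the length: by the principal transcript malate dehydrogenase was first at 1985 ± 42.7 TPM, before lactate dehydrogenase at 1641 ± 53.2 TPM and pyruvate kinase at 1637 ± 29.7 TPM. By the longest transcript malate dehydrogenase was first as well, at 2098 ± 45.2 TPM, and by the gene span aldolase, at 1744 ± 94.8 TPM. Transcript levels are not enzyme activities, and the sums say nothing of flux.

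Pyruvate enters the mitochondrion through a carrier of 2 subunits, Mpc1 and Mpc2. Mpc1 was at 67.5, 70.6, 61.0 and 64.3 TPM, and Mpc2 at 28.4, 28.1, 20.6 and 14.1 TPM in replicates 1 to 4. By merged exons Mpc1 was higher in each library, by 1.54 ± 0.40 on the log2(TPM + 1) scale (SD, n = 4). This direction turned with the length: the difference was −0.14 ± 0.42 with the principal transcript and −0.23 ± 0.42 with no length, since the merged exons of Mpc2 span 7344 bases and its principal transcript 1025. The order of the carrier subunits is therefore not given by these data.

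Mpc1 (GRCm38 chromosome 17, 8282904 to 8297661, plus strand) had the largest share of reads in a copy among the 39 genes. Its processed pseudogene Mpc1-ps on chromosome 12 held 414, 554, 400 and 295 counts, beside 1257, 1655, 1220 and 1102 counts for Mpc1. The copies took 24.8%, 25.1%, 24.7% and 21.1% of the joint counts, or 23.9 ± 1.87% (SD, n = 4). The match is identical over 261 bases, and the stretch printed holds coding bases 244 to 323 of Mpc1 across an exon junction, with 0 differences (Mpc1-ps at chr12:110858746-110858825, minus strand). With the counts of copies added, Mpc1 was at 86.6 ± 6.49 TPM in place of 65.8 ± 4.14 TPM. On the opposite strand the gene 4930506C21Rik shares 23.1% of the exonic bases of Mpc1, and the library protocol does not mark strand.
Mpc1 and Mpc1-ps: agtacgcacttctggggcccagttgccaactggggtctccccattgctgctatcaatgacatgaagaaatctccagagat

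**Figure D3:**
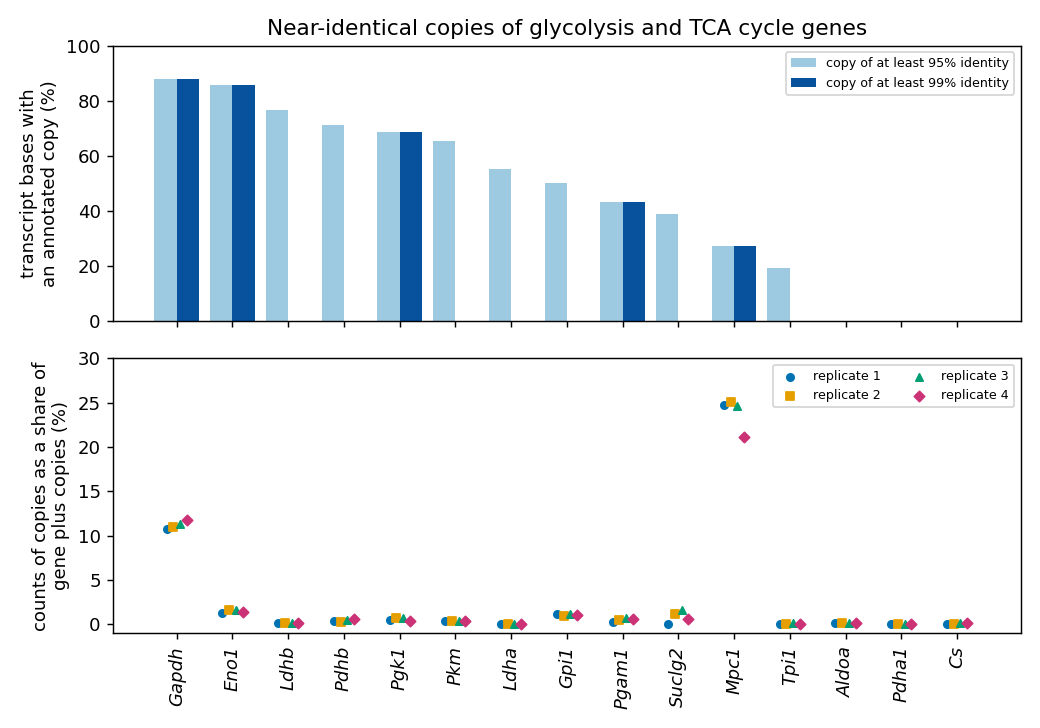
Upper bars show the percent of a gene's transcript bases that have an annotated copy of at least 95% or 99% identity, and lower symbols the counts of copies as a percent of gene plus copies in each library, for the 15 genes with a summed copy. At 99% identity, 88.0% of the bases of Gapdh, 85.6% of Eno1 and 68.8% of Pgk1 have a copy, and at 95% also 76.8% of Ldhb, 71.3% of Pdhb and 65.5% of Pkm, while more than 5% of counts lie in copies for Gapdh and Mpc1.

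Over all 39 genes the 193 summed copies took 0.869 ± 0.035% of the joint counts (SD, n = 4). Of 232 matches found, 204 were in the deposited count table, so reads in the others are not covered. Matches were found for 16 of the 39 genes, and 2 of them, Gapdh and Mpc1, had over 5% of the joint counts in copies. Eno1 had 1.49% and Gpi1 1.08%.

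The pyruvate dehydrogenase complex joins the subunits E1 (Pdha1 and Pdhb), E2 (Dlat) and E3 (Dld). Pdha1 was at 122, 123, 121 and 130.1 TPM and Pdhb at 168, 159.5, 162 and 173 TPM. Pdhb exceeded Pdha1 by 1.30 to 1.38 times by merged exons, and by 2.53 to 2.68 times by the principal transcript. Dlat was far lower, at 20.3, 19.2, 13.6 and 8.30 TPM, and Dld, which also serves the 2-oxoglutarate and other dehydrogenase complexes, was at 128, 124, 123 and 153 TPM. The ratio of Dld to Dlat was between 6.31 and 18.46, with the highest value in replicate 4, where Dlat was lowest and Dld highest. Pcx, pyruvate carboxylase, an enzyme known in brain as astrocytic, was at 64.8, 72.5, 71.96 and 58.6 TPM. Pdha1 was above Pcx in each library, by 1.68 to 2.22 times. Map3k15 on the opposite strand shares 16.1% of the exonic bases of Pdha1.

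Of 9 partners and regulators of the complex, 8 were above 1 TPM and 4 above 10 TPM. Among protein-coding genes tested these shares were 75.8% and 45.3%, so the count above 10 TPM is near the background. The phosphatase Pdp2 (56.0 ± 4.64 TPM), which activates the complex, and Pdhx (55.8 ± 1.83 TPM), which anchors E3, were highest. The testis-specific Pdha2 had too few counts for the test (0.0340 TPM).

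The TCA cycle genes were led by the malate dehydrogenases. Mdh2, the mitochondrial enzyme, was at 966, 974, 959.9 and 1007 TPM, and Mdh1, the cytosolic enzyme of the malate-aspartate shuttle, at 518, 511.5, 469.8 and 506 TPM in replicates 1 to 4. Mdh2 was 1.95 ± 0.08 times Mdh1 by merged exons and 3.95 ± 0.16 times by the principal transcript (SD, n = 4), and the libraries of the 2 genes did not overlap. Cs, citrate synthase, the entry step, was at 199.9, 215, 218 and 225 TPM.

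The isocitrate dehydrogenase subunits Idh3a, Idh3b and Idh3g form a single enzyme, and their levels were close together. Idh3a was at 159, 158, 151 and 172 TPM, Idh3b at 139.8, 138, 144.5 and 134 TPM, and Idh3g at 165, 163, 165 and 152.5 TPM. Idh3a and Idh3g did not keep an order, with Idh3a higher in 1 of 4 libraries (difference −0.02 ± 0.13, log2, SD; exact sign-flip permutation test, two-sided p = 0.75). Idh3b was 0.21 ± 0.03 below Idh3g (log2, SD, n = 4), but above it by 0.15 with the longest transcript as length and by 0.12 with no length. Idh3a was 0.20 ± 0.12 above Idh3b.

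Ogdh and Dlst, E1 and E2 of the 2-oxoglutarate dehydrogenase complex, were at 168, 187, 179.5 and 197 TPM and at 50.8, 48.8, 50.2 and 42.0 TPM. Ogdh was higher in each library, by 3.31 to 4.70 times by merged exons and by 1.27 to 1.80 times by the principal transcript, with the widest gap in replicate 4. With the principal transcript Dlst was at 109.8 TPM, since its merged exons span 9559 bases and its principal transcript 2764.

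Succinyl-CoA ligase pairs the alpha subunit Suclg1 with a beta subunit that sets the nucleotide used, Sucla2 for ADP and Suclg2 for GDP. Sucla2 was at 82.9, 76.8, 80.8 and 95.4 TPM and Suclg2 at 7.45, 7.71, 5.47 and 7.93 TPM. Sucla2 was 11.97 ± 2.04 times Suclg2 (SD, n = 4) and held 92.2 ± 1.16% of the beta subunit TPM, with no overlap between libraries. The log2 distance of Suclg2 to 10 TPM was −0.49 ± 0.12 (test-based SE; adjusted p = 0.0025, edgeR). Suclg1 was at 84.4, 76.9, 74.7 and 83.2 TPM, close to Sucla2 by merged exons. By the principal transcript Suclg1 was at 160.7 and Sucla2 at 99.5 TPM, and by the longest transcript at 100.7 and 113.7 TPM. Fh1, fumarase, was at 84.7, 76.1, 82.2 and 73.4 TPM.

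All 9 other TCA cycle enzymes in a fixed list were above 1 TPM, 8 of them above 10 TPM and 6 above 100 TPM. Among protein-coding genes tested these shares were 75.8%, 45.3% and 9.59%. Sdhb, the iron-sulfur subunit of succinate dehydrogenase, was at 571 ± 13.0 TPM and Idh1, the cytosolic NADP-dependent isocitrate dehydrogenase, at 499.8 ± 38.2 TPM (SD, n = 4). Its mitochondrial counterpart Idh2 was at 38.1, 41.3, 29.9 and 20.9 TPM, lowest in replicate 4. Of 14 genes of shuttles and links to the cycle, 12 were above 1 TPM, led by Acly (271 ± 7.13 TPM), which cleaves exported citrate to acetyl-CoA, and Slc25a11 (156 ± 31.2 TPM), the oxoglutarate carrier. Me3 (0.227 TPM), a mitochondrial malic enzyme, and Pck1 (0.121 TPM), the cytosolic gluconeogenic enzyme, were below 1 TPM.

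Other isozymes of glycolysis in a list of 13 were mostly low: 6 were above 1 TPM and 1 of them above 10 TPM. Among protein-coding genes tested these shares were 75.8% and 45.3%. The isozyme above 10 TPM was Bpgm, which makes the red cell effector 2,3-bisphosphoglycerate, at 82.8 ± 2.31 TPM (SD, n = 4). It was at 85.7, 80.2, 83.0 and 82.2 TPM in replicates 1 to 4. Eno4 (4.75 TPM) and Gapdhs (1.65 TPM), both known from sperm, were above 1 TPM, and Ldhd, Hk3 and Pklr were below it. All 7 genes of the pentose phosphate pathway, which branches from glucose-6-phosphate, were above 1 TPM. Taldo1 (640.4 ± 12.3 TPM) and Tkt (331 ± 15.7 TPM), of its non-oxidative arm, led them.

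Among 7 transcriptional regulators of these pathways, 5 were above 1 TPM. Myc, a known activator of glycolytic genes, was at 88.5 ± 4.45 TPM and Mycn at 52.5 ± 4.23 TPM (SD, n = 4). Epas1, the HIF-2 alpha gene, (0.434 TPM) and Esrra (1.09 TPM) were not called. Of 9 hypoxia-responsive genes outside glycolysis, 8 were above 1 TPM, led by Bnip3 (78.6 ± 8.47 TPM), a mitophagy receptor, and P4ha1 (75.7 ± 5.32 TPM), a collagen prolyl hydroxylase. Car9, a membrane carbonic anhydrase strongly induced by hypoxia, had too few counts for the test (0.0584 TPM). In all, 67 of the 87 genes on the 10 lists were above 1 TPM and 12 above 100 TPM, or 77.0% and 13.8%. All 87 are protein coding, and of the protein-coding genes tested 75.8% and 9.59% were above these levels. Above 10 TPM were 37 of the 87, against 45.3% of protein-coding genes tested.

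A list of 18 pairs of isozymes or partner subunits was compared within each library, and 17 of them had 1 sign in all 4 libraries. Each of the 17 had the smallest p that 4 libraries allow in an exact permutation test by sign flips (two-sided), which is 0.132 after Benjamini-Hochberg adjustment over the 18 pairs. Among all pairs of protein-coding genes tested, 91.4% had 1 sign in all libraries, so the share of pairs is near the background. For 10 of the 18 pairs the mean difference by merged exons was larger than 1 on the log2(TPM + 1) scale. Which pairs pass this size depends on the length used. The share of all pairs of protein-coding genes with such a difference was not computed, so the count is not read as a trait of these pairs.

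The 39 genes had a median CV of 6.27% between libraries, against 8.88% for the 7390 protein-coding genes with a mean of at least 10 TPM. These groups were not matched for level. The median of the mean levels was 124 TPM in the set, which also holds genes under 10 TPM, and 35.98 TPM in the 7390 genes. Whether the CVs differ at equal level was not tested. Eno1 (1.56%), Pkm (1.84%), Mdh2 (2.12%) and Ldha (2.27%) were the steadiest. At the other end, Dlat had a CV of 36.1% and Mpc2 of 29.9%, both lowest in replicate 4.

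Dlat and Mpc2 were the members of the set whose highest library was at least 2 times the lowest, at 2.45 and 2.01 times. Among protein-coding genes with a mean of at least 10 TPM, 88 (1.19%) had such a range, and 76 of these 88 were lowest in replicate 4. Without replicate 4, Dlat was at 17.7 ± 3.60 TPM and Mpc2 at 25.7 ± 4.396 TPM (SD, n = 3). In the same library Bsg was lowest too, at 203 TPM against 420.4, 430.5 and 334 TPM, and 7 of 8 microglia markers were lowest there, with a summed level of 17.1 TPM against 30.8 to 40.9 TPM in the others. The part of these differences in the values of Dlat and Mpc2 was not tested. Over all 39 genes, 15 (38.5%) were lowest and 13 (33.3%) highest in replicate 4, against 29.1% and 37.4% of the 7390 protein-coding genes with a mean of at least 10 TPM.

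**Figure D4:**
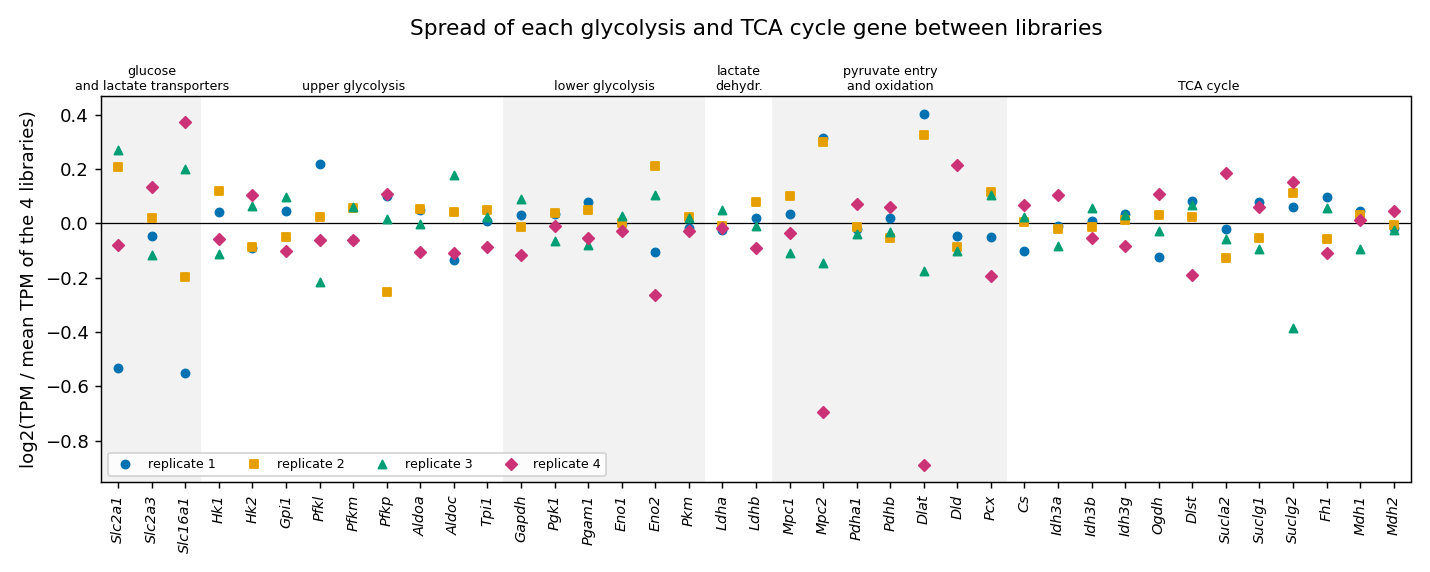
Deviation of each library from the mean of the 4 libraries for each gene, as log2 of TPM over mean TPM, with 1 symbol per library. For 34 of the 39 genes each library lies within 0.3 of the mean, a share not computed for other genes. Replicate 4 lies at −0.89 for Dlat and −0.69 for Mpc2, and replicate 1 at −0.53 for Slc2a1 and −0.55 for Slc16a1.

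Levels compared between genes depend on the length by which counts are divided. The TPM given here uses all annotated exons of a gene merged, which together exceed the length of its principal transcript in all but Slc16a1 of the 39 genes. With the principal transcript as length, 8 of the 39 genes were more than 1.5 times higher: Mpc2 (4.75 times), Dlst (2.29), Pfkp (2.14), Suclg1 (2.01), Gapdh (1.93), Eno1 (1.76), Pdhb (1.69) and Mdh2 (1.62). Slc16a1 was lower, at 6.42 TPM in place of 9.68 TPM. The median ratio was 1.19. By this length Pkm (1637 ± 29.7 TPM) was followed by Mdh2 (1583 ± 34.2 TPM) and Ldhb (1096 ± 52.6 TPM), so the same genes took the top 3 places in another order. For 12 of the 18 pairs of isozymes or partner subunits, the ratio moved by more than 1.5 times. The order of Ldhb over Ldha, Hk1 over Hk2, Pfkm over Pfkl, Aldoa over Aldoc and Mdh2 over Mdh1 was the same by both lengths.

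**Figure D5:**
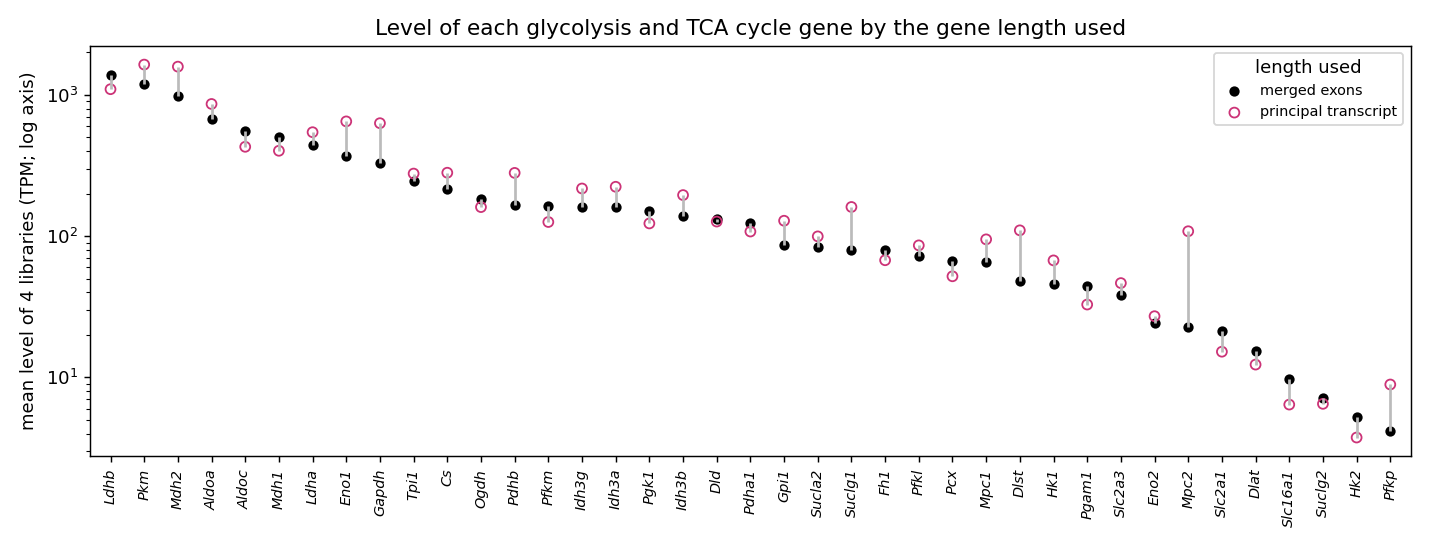
Mean level of each gene over 4 libraries, in TPM on a log axis, with the merged exons (filled) or the principal transcript (open) as the length. Genes are ordered by the filled points, and the widest gap is that of Mpc2, at 22.8 and 108 TPM.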

How the data were processed

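RNA was measured in 4 libraries of 1 group. Poly-dT priming and template switching gave cDNA that was amplified and sonicated, per the labels' protocols, and none of these steps marks strand. Per the submitters' processing notes, bcl2fastq 2.19.1, STAR 2.5.2b and GRCm38 were used. The counter, annotation and treatment of multi-mapping reads are not stated in the labels or notes. Each deposited count is a whole number of reads for an Ensembl gene. 563 of 45706 identifiers did not match GENCODE M21 (0.120% to 0.125% of counts).

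The authors' deposited TPM table lists 33 of the 39 genes and divides by gene span (9005 of 9440 genes within 0.01 log2). TPM was therefore recomputed from the counts with merged exon length. Levels were tested against 1, 10 and 100 TPM by a quasi-likelihood F test of a single group, from fits in edgeR 4.0.16 (R 4.3.3). The test was two-sided, for genes with at least 10 counts in total, with Benjamini-Hochberg adjustment at 0.05. Its F was computed from the deviance at the level less that of the fit, outside edgeR's own test function. Each test-based SE is the log2 distance divided by the square root of F, so it changes with the level tested. On simulated data for the test against 100 TPM (14345 genes), 50 of 50 genes set at 1.25 times that level were called, and 1 of 50 set at it. The simulated counts followed the model of the test, with spread set by abundance and lengths known. Extra spread of single genes and errors in length were therefore not covered.

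Copies were searched with blastn 2.17.0 in the GENCODE transcripts rather than the genome, which was not used here. A match in the deposited count table was summed where it covered at least 50% of the copy's exons, a rule chosen after seeing the data. The genes and lists were chosen with earlier results of these data known. Of each list, the text names the 2 highest genes, isozymes of the steps compared and genes not called above 1 TPM, and of each marker list the highest. Alternatives were other lengths, TMM and DESeq2 1.42.0 scaling, the DESeq2 Wald test, no count filter, copies added, another pseudocount and leaving out each replicate. The principal transcript and the length less copies were added after seeing the data. Some isozymes counted in the sums of steps and lists are not reported here.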

Additional observations from a re-analysis of the deposited data

Results flagged for a closer look

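Dld, the E3 subunit shared by several dehydrogenase complexes, was at 153 TPM in replicate 4, against 123 to 128 TPM in replicates 1 to 3. Without replicate 4 its mean was 125 ± 2.60 TPM (SD, n = 3). The gap of replicate 4 to its nearest library was 0.833 of the whole range, just past Dixon's 95% critical value for 4 samples. Chance alone marks about 1 in 20 genes in this way. Of the 39 genes, 1 (2.56%) was marked, against 1054 of 15401 protein-coding genes (6.84%).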

How the results depend on the processing

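No paired analysis was possible because the libraries form 1 group. All 39 genes stayed above 1 TPM under each alternative except the gene span as length, which left 38. The count above 10 TPM was 30 with the gene span, 34 with the principal transcript and 35 otherwise, and the count above 100 TPM 14, 23 and 20, with 22 for the longest transcript. Pairs of 1 sign numbered 15 to 18, and the leading isozyme was the same in each library for 11 of 11 steps, or 9 with the gene span or with no length. With matches of at least 95% identity, copies held 0.594% of the joint counts; leaving out a replicate gave 0.852% to 0.877%. The following differences turned, in log2. With the gene span as length, Pfkl minus Pfkm was 0.59, Aldoa minus Aldoc −0.068, Idh3a minus Idh3b −1.03, Idh3b minus Idh3g 0.72 and Ogdh minus Dlst −0.30. With no length, Mpc1 minus Mpc2 was −0.23 and Idh3b minus Idh3g 0.12. The principal transcript gave −0.14 for Mpc1 minus Mpc2, and the longest transcript 0.15 for Idh3b minus Idh3g. These alternatives change the length alone. Of the 68 single levels, shares and differences, 2 moved by more than 1 SD with copies added, 56 with the principal transcript, 50 with the longest transcript and 53 with the gene span, not counting those that turned. The number of libraries, 4, and the unknown treatment of reads shared with copies limit the precision of these levels.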
